A study of Mus musculus with 28 samples.

Results

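Peaks of 2 histone marks, H3K79me2 and H3K27me3, were compared along chromosomes 1 to 19 in mouse lung tumours. The members were the 8 libraries of these marks, 4 for each, chosen by the mark in their titles from 28 samples in all. On these chromosomes they held 149353 H3K79me2 peaks and 149321 H3K27me3 peaks, out of 950445 peaks in the 24 antibody libraries of the series.

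Chromatin immunoprecipitation followed by sequencing (ChIP-seq) uses an antibody to enrich the DNA wrapped around histones that carry a given mark. All tumours arose in mice with K-RasLSL-G12D, an oncogenic K-Ras allele silent until Cre recombinase removes a stop cassette, and some of the mice also carried Mll4fl/fl, floxed alleles of a gene for a histone methyltransferase. Cre was delivered by Ad-CMV-Cre, an adenovirus in which the ubiquitous CMV promoter drives the recombinase, so the deletion is not tied to a single cell type, and the tissue was whole tumour with any other cells it held. The labels do not tie a library to a tumour type. The types were therefore not compared, and the spread between the 4 libraries of a mark can include a difference between them. Nothing in the labels says that libraries of a mark came from separate animals, and the p-values below therefore measure only the spread between these libraries.

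H3K79me2 is dimethylation of lysine 79 of histone H3. It is placed by Dot1l, which travels with transcription elongation complexes, and it lies over the first part of transcribed genes. H3K27me3, trimethylation of lysine 27, is placed by Polycomb repressive complex 2, and is known for broad domains over silent developmental genes such as the Hox clusters. The marks are thus usually taken as opposites, and the question put to the peak lists was at which distance along a chromosome that holds.

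The peak lists differed between marks and between libraries. H3K79me2 replicates 1 to 4 held 28690, 28530, 39345 and 52788 peaks, with median widths of 2618, 2805, 1686 and 1106 bp, and covered 139.9, 154.2, 141.6 and 114.3 Mb. H3K27me3 replicates 1 to 4 held 20027, 47695, 38213 and 43386 peaks, with median widths of 412, 337, 1490 and 456 bp, and covered 10.8, 23.7, 102.3 and 32.4 Mb. H3K27me3 replicate 3 stood apart from the other libraries of its mark in width and covered length. No peak with the same start and end occurred in both libraries of any pair of a mark, and read depth is unknown for every library. The bin correlation, the differences in marked bins, in the top bins and in adjacent bins, and the mixed share are given below with and without replicate 3.

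At a scale of 1 Mb, stretches with more H3K79me2 also held more H3K27me3. The chromosomes were divided into bins of 1 Mb, and the 2356 bins that held a peak of any of the 6 marks were used. Over these bins the Spearman correlation of the bases covered by H3K79me2 and by H3K27me3 in libraries of the same replicate number was 0.551, 0.552, 0.638 and 0.556, a mean of 0.574 ± 0.0425 (SD, n = 4). Replicate 3 was highest, and without it the mean was 0.553. Pairs with different replicate numbers gave 0.575 ± 0.0419 (SD, 12 pairs). The bins share each library's depth and are not independent of their neighbours, so these coefficients are descriptions.

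H3K79me2 went closely with the marks of active chromatin over the same bins. Its mean correlation was 0.916 with H3K4me1, a mark of enhancers, 0.890 with H3K27ac, a mark of active enhancers and promoters, and 0.816 with H3K4me3, a mark of promoters. With H3K9me3, a mark of heterochromatin, it was 0.444, 0.500, 0.198 and 0.714 in replicates 1 to 4, highest with an H3K9me3 library that stood apart from the others in its overlap with H3K79me2. H3K27me3 correlated at 0.643 with H3K4me1, 0.648 with H3K4me3, 0.583 with H3K27ac and 0.389 with H3K9me3. Libraries of the same mark correlated at a mean of 0.965 for H3K79me2 and 0.913 for H3K27me3, so the correlation between the marks lay well below that within either.

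The sign of the relation changed with the size of the bin. With bins of 10 kb the correlation was below 0 in all 4 replicates, between -0.0797 and -0.0408, and with bins of 50 kb it lay on both sides of 0, between -0.00520 and 0.0186. The mean then rose to 0.111 at 100 kb, 0.457 at 500 kb, 0.574 at 1000 kb, 0.654 at 2000 kb and 0.731 at 5000 kb. Bins smaller than 1 Mb were cut from the same 2356 bins, so empty stretches beside a peak were kept.

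The share of bins that held any base of both marks, divided by the product of the shares that held each, followed the same order at short range. It was 0.385 ± 0.0517 at 10 kb, 1.08 ± 0.0572 at 50 kb, 1.38 ± 0.0354 at 100 kb and 1.37 ± 0.0191 at 500 kb (SD, n = 4). A value of 1 is what unrelated placement over the bins would give. At 10 kb all 4 replicates were below 1, from 0.325 to 0.448, and at 50 kb all 4 were above it, from 1.03 to 1.15. From 1000 kb on the ratio came back towards 1, reaching 1.03 at 5000 kb, as nearly every bin then held both marks.

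**Figure D1:**
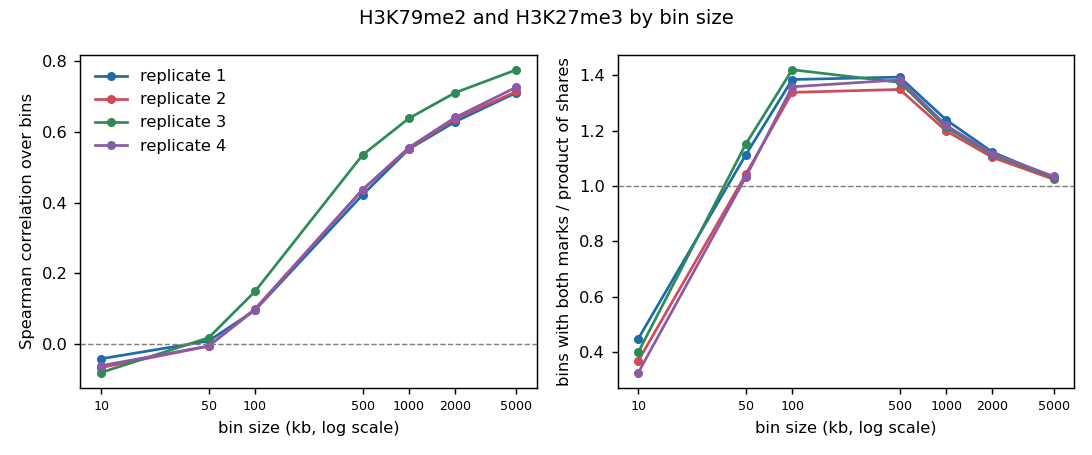
Spearman correlation of covered bases (left) and bins holding both marks relative to the product of the shares (right) against bin size in kb on a log scale, with a line for each replicate number and a dashed line where the marks are unrelated. All 4 replicates lie below the dashed line at 10 kb and above it at 100 kb and at each larger size.

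Bins were next put into classes. A bin was called marked from 5 kb of covered bases, and could be H3K79me2-only, H3K27me3-only, mixed or neither. H3K79me2 marked 69.6%, 70.3%, 68.3% and 65.3% of bins in replicates 1 to 4, and H3K27me3 marked 23.1%, 35.7%, 62.3% and 39.5%. The lowest H3K79me2 library was above the highest H3K27me3 library, with a mean difference of 28.2 percentage points (exact permutation p 0.0286, the smallest 4 against 4 libraries allow; 0.0514 with Benjamini-Hochberg adjustment over 9 such tests). Without H3K27me3 replicate 3 the difference was 35.6 points, and with bins marked from 1 kb it was 15.7 points with overlapping groups (exact permutation p 0.0571).

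Most bins that carried H3K27me3 also carried H3K79me2. Mixed bins made up 22.0%, 33.4%, 55.3% and 35.7% of all bins in replicates 1 to 4, a mean of 36.6% ± 13.8 (SD, n = 4), or 30.4% without replicate 3. The mean depended on the rule: it was 52.1% with bins marked from 1 kb, 18.6% from 20 kb and 12.2% for the top 25% of bins. Of the bins marked by H3K27me3, 95.4%, 93.6%, 88.8% and 90.3% were mixed. The mixed share was 1.30 to 1.38 times the product of the shares of both marks, a narrow range beside that of the share itself. H3K27me3-only bins were few, 25, 54, 164 and 90, while H3K79me2-only bins numbered 1121, 870, 306 and 697. Bins with neither mark made up 28.1% ± 2.67 (SD, n = 4).

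**Figure D2:**
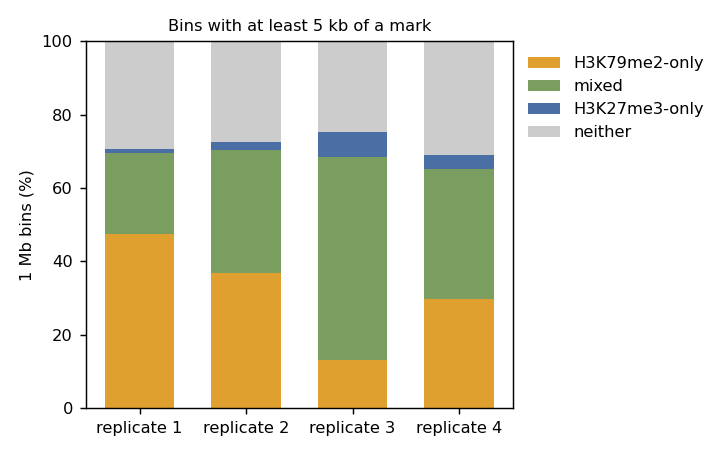
Share of 1 Mb bins (%) in each class for replicates 1 to 4, with a bin counted as marked from 5 kb. Mixed bins range from 22.0% to 55.3%, while H3K27me3-only bins stay between 1.06% and 6.96%.

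The class of a bin was shared by many libraries. In all 4 replicates 1332 of 2356 bins (56.5%) had the same class, made up of 501 mixed, 263 H3K79me2-only, 547 neither and 21 H3K27me3-only bins. The H3K27me3-only class was less stable. Of the 196 bins that were H3K27me3-only in any replicate, 21 were so in all 4, and 52 were H3K79me2-only in another replicate. A class defined by rank does not depend on how much was called. Of the 25% of bins with the most H3K79me2, 49.6%, 48.6%, 50.1% and 46.9% were also among the 25% with the most H3K27me3. These shares lie above 25%. They lie well below the 88.8% to 95.4% of H3K27me3-marked bins that were mixed by the 5 kb rule.

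Mixed bins nevertheless held the marks on different bases. Within them, 0.497%, 0.668%, 0.708% and 0.200% of the H3K27me3 bases were also covered by H3K79me2, which covered 10.9%, 10.9%, 9.46% and 8.57% of the length of these bins. Between 83.3% and 94.2% of the mixed bins held no shared base at all. These bins contained 83.7% to 94.7% of all bases covered by H3K27me3, and 40.3% to 87.1% of those covered by H3K79me2.

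The separation was also visible in the order of regions along a chromosome. The next region was of the same mark in 89.5%, 91.5%, 89.9% and 94.4% of cases, where the squared shares of the marks sum to 50.01% to 53.2%. Runs of closely spaced peaks contributed to this, and after regions of a mark within 10 kb of each other had been joined the share was 62.2% to 66.5%. A block of successive H3K79me2 regions spanned a median of 44.3 to 111 kb before any joining, and a block of H3K27me3 regions 16.02 to 41.5 kb. The empty gap at a switch from one mark to the other had a median of 25.3 to 48.4 kb.

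Coverage as a function of distance showed where H3K27me3 lay. The covered share of the bases at a given distance from H3K79me2 was divided by the covered share over all bins, so that 1 is the average. Inside H3K79me2 regions this was 0.0916, 0.0973, 0.113 and 0.0399 in replicates 1 to 4, and within 1 kb of them 0.147 ± 0.0763 (SD, n = 4). It reached 1.09 ± 0.0645 at 5 to 10 kb, rose to 2.12 ± 0.0294 at 20 to 50 kb and was highest at 50 to 100 kb, with 2.53, 2.51, 2.44 and 2.63 in replicates 1 to 4. It fell to 1.78 at 100 to 200 kb, 0.614 at 200 to 500 kb and 0.0358 beyond 1 Mb. H3K27me3 was therefore depleted in H3K79me2 regions and in the regions' immediate surroundings, most dense at 20 to 200 kb from them, and nearly missing far from them, in each of the 4 replicates. The stretches beyond 1 Mb made up 298 to 324 Mb.

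Other marks had other profiles around the same H3K79me2 regions. H3K4me1 was highest inside them, 9.61 ± 0.609 times its average, and stood at 0.538 ± 0.0481 at 50 to 100 kb (SD, n = 4). H3K4me3 was 7.52 ± 1.48 inside and 8.67 ± 3.31 within 1 kb. H3K9me3 was highest at 5 to 10 kb in the mean, at 3.26 ± 0.484, with 2.53 ± 2.71 inside, where its replicate 4 reached 6.59. Of H3K27me3, H3K4me1, H3K4me3 and H3K9me3, only H3K27me3 had its highest mean value at 50 to 100 kb.

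Seen from the other mark, H3K79me2 around H3K27me3 regions took a similar course. Its relative coverage was 0.0854 ± 0.0316 inside them, 0.643 ± 0.0646 at 5 to 10 kb, 1.91 ± 0.138 at 50 to 100 kb and 0.187 ± 0.0675 beyond 1 Mb (SD, n = 4). The value inside is the same by construction in both directions. At 50 to 100 kb from H3K27me3, H3K27ac stood at 1.89 ± 0.0518 and H3K4me1 at 1.97 ± 0.0865, so that high values at this distance were shared by other marks. Inside H3K27me3 regions H3K27ac stood at 0.120, 0.0466, 0.402 and 0.116 in replicates 1 to 4, below average in each. H3K4me1 stood at 4.58, 3.16, 0.559 and 0.843, above average in replicates 1 and 2 and below it in the others. H3K4me3 stood at 8.61, 4.51, 2.54 and 3.49, above average in all 4.

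**Figure D3:**
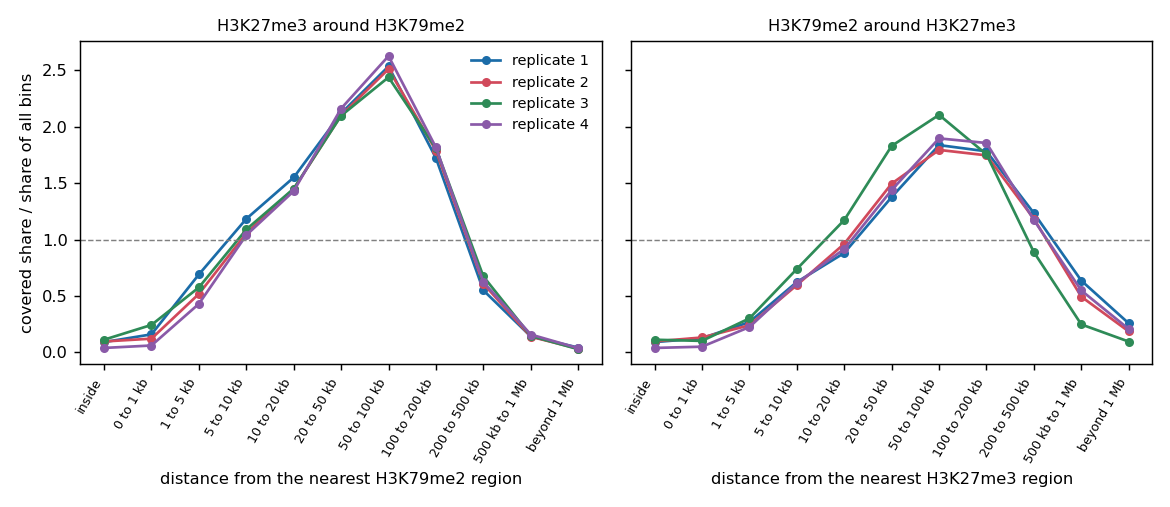
Covered share relative to all bins of H3K27me3 by distance from the nearest H3K79me2 region (left) and of H3K79me2 by distance from the nearest H3K27me3 region (right), with a line for each replicate number and a dashed line at the average. On the left all 4 replicates are highest at 50 to 100 kb, between 2.44 and 2.63, and lowest beyond 1 Mb.

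The distance from each H3K27me3 region to the nearest H3K79me2 region of the same replicate number was nearly the same in all replicates. Its median was 71.4, 78.0, 75.9 and 78.8 kb, a mean of 76.0 ± 3.34 kb (SD, n = 4), although the number of H3K27me3 regions varied from 20027 to 47695. Overlap with H3K79me2 was found for 0.664%, 0.795%, 1.13% and 0.304% of regions. A further share lay close by, so that 7.54%, 6.49%, 8.01% and 5.54% were within 10 kb, and 63.0%, 59.9%, 59.5% and 59.6% were within 100 kb. Beyond 1 Mb lay 129, 203, 155 and 264 regions, or 0.406% to 0.644%.

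Positions set every 10 kb over the same bins give a measured reference. Their median distance to H3K79me2 was 165, 158, 166 and 178 kb, 14.01% to 15.2% of them lay within 10 kb and 39.6% to 41.7% within 100 kb. H3K27me3 regions were thus less often within 10 kb than these positions and more often within 100 kb, in every replicate. A total of 12.6% to 13.7% of the positions lay beyond 1 Mb.

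Every H3K27me3 library had a longer median distance to H3K79me2 than every library of H3K9me3 or H3K4me3. The median for H3K9me3 was 56.4, 43.7, 48.1 and 5.81 kb in replicates 1 to 4, all below the lowest H3K27me3 value. The difference of the log2 medians was 1.40 (exact permutation p 0.0286; adjusted p 0.0514 over 9 tests). H3K9me3 replicate 4, of which 36.5% of regions overlapped H3K79me2 against 6.04% to 7.13% in the other H3K9me3 libraries, carried much of its size: without that library the difference was 0.63. With the 5160 best-scored peaks of every library the difference was 0.0668 (exact permutation p 0.8), and after joining peaks within 1 kb it was 1.26 (exact permutation p 0.171). With peaks scored under the median dropped it was 1.51 (exact permutation p 0.0286). The cause of these differences was not tested.

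For H3K4me3 the medians were 0, 0, 0.463 and 0.174 kb. The difference of log2 medians from H3K27me3, with 1 bp added, was 12.14 (exact permutation p 0.0286; adjusted p 0.0514 over 9 tests). Its size rests on medians at or near 0: it was 4.96 with the 10429 best-scored peaks of every library, 8.82 from midpoints and 8.87 with the mean of log2 distances, each with an exact permutation p of 0.0286. H3K27ac regions overlapped H3K79me2 in 43.2%, 82.7%, 40.4% and 36.7% of cases, with replicate 2 far above the others. Whether H3K27ac replicate 2 and H3K9me3 replicate 4 hold only the mark of their label was not tested, and values of these marks are to be read with that doubt. Overlap of H3K4me1 regions was 60.5%, 57.98%, 52.03% and 44.02%.

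**Figure D4:**
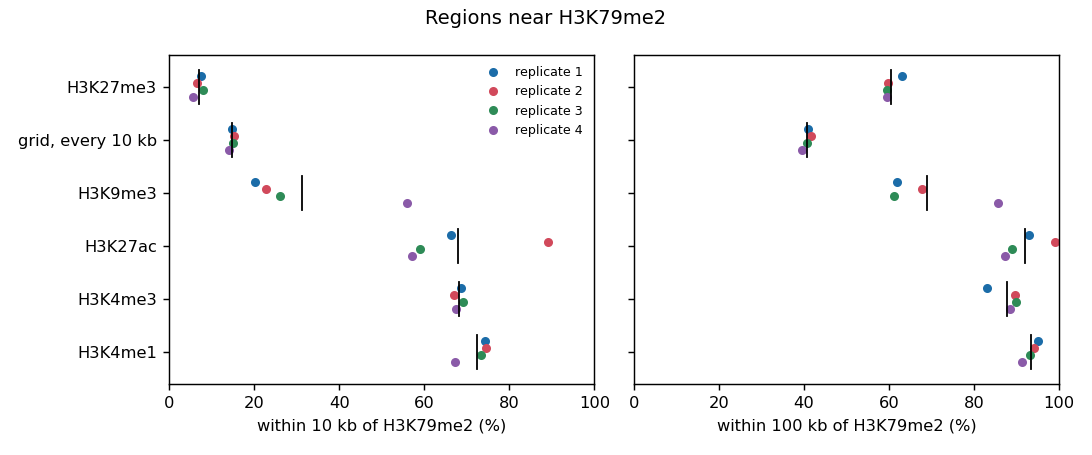
Share of regions (%) within 10 kb (left) and within 100 kb (right) of the nearest H3K79me2 region of the same replicate number, by mark and for positions set every 10 kb; dots are replicates and bars their mean. H3K27me3 lies below the positions at 10 kb, from 5.54% to 8.01%, and above them at 100 kb, from 59.5% to 63.0%.

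Width went with distance among H3K27me3 regions. In replicate 2, regions under 1 kb had a median distance of 79.2 kb, those of 1 to 5 kb 65.8 kb, and the 100 regions of at least 5 kb 54.2 kb. The same order held in replicate 1 (72.2, 63.5 and 44.4 kb, the last over 11 regions), replicate 3 (83.9, 75.4 and 65.3 kb) and replicate 4 (80.3, 72.6 and 58.4 kb). Wider H3K27me3 regions were nearer to H3K79me2 in each library, and how far this follows from their width itself was not tested.

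The reverse distance depended more on the library. From each H3K79me2 region the median distance to H3K27me3 was 165, 128, 85.0 and 149 kb. It was shortest in replicate 3, where H3K27me3 covered most. For H3K9me3 regions the median distance to H3K27me3 was 243, 118, 123 and 134.2 kb, and the groups overlapped (log2 difference -0.21, H3K79me2 minus H3K9me3; exact permutation p 0.571). For H3K4me3 regions it was 120, 58.7, 36.6 and 80.8 kb, again overlapping with H3K79me2 (log2 difference 0.92; exact permutation p 0.0571). Positions every 10 kb had medians of 301, 201, 142 and 250.2 kb to H3K27me3, longer than those of H3K79me2 in each replicate, and overlapped it in 0.453%, 1.04%, 4.36% and 1.40% of cases, more often than H3K79me2 regions did in each replicate. H3K4me3 regions overlapped H3K27me3 in 9.94% ± 4.64 of cases, against 0.622% ± 0.459 of H3K79me2 regions (SD, n = 4).

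H3K27me3 was the more concentrated mark. The 10% of bins with the most covered bases held 61.8%, 59.7%, 49.0% and 60.8% of all H3K27me3 bases, against 35.8%, 35.1%, 37.2% and 39.3% for H3K79me2, with no overlap between the groups. The difference was -21.0 percentage points for H3K79me2 minus H3K27me3 (exact permutation p 0.0286; adjusted p 0.0514), and -23.9 points without H3K27me3 replicate 3. H3K27me3 was also more alike between neighbouring bins: the Spearman correlation of adjacent bins was 0.435, 0.505, 0.547 and 0.453, against 0.367, 0.361, 0.361 and 0.372 for H3K79me2 (difference -0.12; exact permutation p 0.0286; adjusted p 0.0514), and the difference was -0.0989 without H3K27me3 replicate 3. That call was lost when peaks scored under the median were dropped, where the difference was -0.0690 (exact permutation p 0.143).

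At the scale of single regions the measures differed among themselves. A neighbour of the same mark within 10 kb was found for 87.5%, 88.1%, 93.3% and 95.9% of H3K79me2 regions and for 85.5%, 92.4%, 89.0% and 94.7% of H3K27me3 regions, and the groups overlapped (exact permutation p 0.771). The median gap between regions was 0.0163 to 0.0295 of the mean gap for H3K79me2 and 0.0106 to 0.0317 for H3K27me3 (exact permutation p 0.314). Regions with no other of their mark within 50 kb made up 21.7%, 21.2%, 15.05% and 12.4% of the chains of H3K79me2 and 38.04%, 28.3%, 27.95% and 24.1% of those of H3K27me3, where a chain is a set of regions with gaps of at most 50 kb. These last values did not overlap between the marks, and no test was run on them. Blocking by replicate number gave an exact sign-flip permutation p of 0.125, the smallest that 4 pairs allow, for each of the 5 differences above whose p was 0.0286. After adjustment over the 9 tests none of these was under 0.05.

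Exclusive bins differed in the other marks. H3K4me1 covered 7.03, 10.3, 16.3 and 24.4 kb per H3K79me2-only bin in replicates 1 to 4, and 0.949, 1.84, 2.55 and 5.20 kb per H3K27me3-only bin, a log2 difference of 2.57 ± 0.278 (SD, n = 4). H3K27ac differed by 3.24 ± 1.46, H3K4me3 by 1.12 ± 0.602 and H3K9me3 by 1.45 ± 0.406 on the log2 scale. All 4 marks were higher in the H3K79me2-only bins in 4 of 4 replicates, and each exact sign-flip permutation p was 0.125, also after adjustment over the 4 tests. Without replicate 2, whose H3K27ac library stood apart, the H3K27ac difference was 2.68. These values rest on 25 to 164 H3K27me3-only bins, and their size depended on how bins were classed. With a class defined by the top 25% of bins they were 1.13 for H3K4me1, 1.23 for H3K27ac, 0.37 for H3K4me3 and 0.33 for H3K9me3, and with bins of 2 Mb the H3K27ac difference was 6.96. The 4 replicates no longer shared a direction for H3K4me3 with bins of 2 Mb (1.39) and for H3K9me3 with bins marked from 20 kb (0.93), each with an exact sign-flip permutation p of 0.25.

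Mixed bins held more of every other mark than either exclusive class. They were also rich in H3K79me2, which covered 10.9%, 10.9%, 9.46% and 8.57% of their length in replicates 1 to 4. Over all bins it covered 5.94%, 6.55%, 6.01% and 4.85%. How far the other marks follow the amount of H3K79me2 was not tested. H3K4me1 covered 14.4, 19.9, 31.6 and 44.5 kb per mixed bin, above the H3K79me2-only bins in all 4 replicates. H3K27ac covered 16.3, 15.97, 76.2 and 84.2 kb per mixed bin, against 10.1, 10.9, 41.1 and 54.7 kb in H3K79me2-only bins and 0.638, 0.355, 9.97 and 13.6 kb in H3K27me3-only bins. Even H3K9me3 was highest there, with 3.18, 2.41, 1.09 and 4.38 kb per mixed bin against 3.05, 1.97, 1.01 and 2.70 kb in H3K79me2-only bins. Bins with neither mark were lowest in every other mark in each replicate, except for H3K9me3 in replicate 3, with 0.432 kb against 0.397 kb in H3K27me3-only bins.

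Every chromosome showed the positive relation between bins. The Spearman correlation was above 0 in all 4 replicates on 19 of 19 chromosomes, with means from 0.413 on chromosome 18 to 0.707 on chromosome 15. Whole chromosomes ranked alike for both marks as well: over the 19 chromosomes the Spearman correlation of mean covered kb per bin was 0.795, 0.786, 0.767 and 0.821 in replicates 1 to 4. Chromosomes 11 and 19 were highest in both, at 1.46 ± 0.0639 and 1.46 ± 0.0557 times the average for H3K79me2 and 1.75 ± 0.210 and 2.29 ± 0.578 times for H3K27me3 (SD, n = 4). Chromosomes 14, 1 and 3 were low for both, with H3K79me2 at 0.721, 0.747 and 0.791 and H3K27me3 at 0.625, 0.665 and 0.534.

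Some chromosomes leaned towards a mark. Bins were ranked by each mark in each library, and a bin was said to lean to the mark with the higher rank where this held in all 4 replicate numbers: 708 of 2356 bins (30.1%) leaned to H3K79me2 and 731 (31%) to H3K27me3. On chromosome 10, 43.2% of bins leaned to H3K79me2 and 23.2% to H3K27me3, and on chromosome 16 the shares were 37.2% and 19.1%. Chromosome 9 leaned the other way, with 27.6% and 45.5%, as did chromosome 19 with 27.6% and 41.4% and chromosome 2 with 23.7% and 40.5%. These shares were not tested, since bins of a chromosome are not independent.

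**Figure D5:**
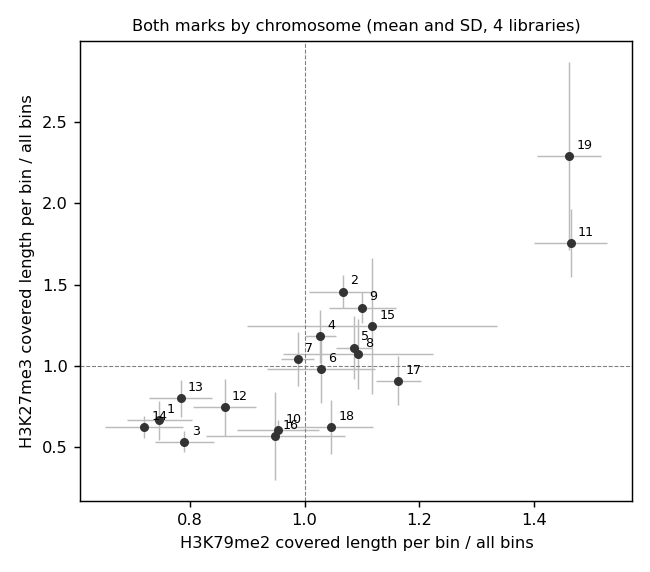
Covered length per bin of each chromosome relative to all bins, H3K79me2 on the horizontal and H3K27me3 on the vertical axis; points are means and bars SDs over 4 libraries, numbers are chromosomes, and dashed lines mark the average. Chromosomes 11 and 19 lie highest in both marks, and chromosomes 1, 3 and 14 lie low in both.

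Single places show how the marks shared a bin with few or no shared bases. Coordinates are those of the deposited files, whose build is mm9 per the submitters' processing notes, and no annotation of that build was used. The mixed bin with the highest smallest value over all 8 libraries was chr15:102000001-103000000, which from general knowledge of mm9 holds the HoxC cluster of developmental transcription factors. H3K79me2 covered 155, 146, 132 and 161 kb of it in replicates 1 to 4, and H3K27me3 covered 154, 240, 274 and 381 kb. Chains were built from H3K27me3 regions covered in at least 3 of 4 libraries, with gaps of at most 50 kb. The chain with the most regions, 354, began in this bin, at chr15:102512163-103011052. In that chain H3K27me3 covered 151, 230, 253 and 367 kb and H3K79me2 only 5.87, 3.67, 4.35 and 6.46 kb. Most of the bin's H3K79me2 therefore lay outside the H3K27me3 chain, and neither bin nor chain held a base of both marks in any replicate.

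The next chain by number, with 326 regions, lay at chr11:95945908-96601538, over the place of the HoxB cluster. H3K27me3 covered 113, 209, 402 and 282 kb of it, and H3K79me2 6.70, 1.54, 0 and 0 kb, of which 0.320 and 0.480 kb were shared in replicates 1 and 2. The chain of 265 regions at chr9:61274464-61751108 held 23.9, 118, 287 and 267 kb of H3K27me3 and no H3K79me2 in any library. Each of the 3 chains was nearly or fully free of H3K79me2 in all 4 replicates.

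The bins of the other Hox clusters had the same make-up. In the HoxB bin, chr11:96000001-97000000, H3K79me2 covered 69.9, 68.7, 65.8 and 59.99 kb and H3K27me3 129, 234, 467 and 328 kb. In the HoxA bin, chr6:52000001-53000000, the values were 71.8, 63.3, 60.5 and 50.6 kb for H3K79me2 and 75.2, 113, 214 and 223 kb for H3K27me3. The HoxD bin, chr2:74000001-75000000, held least H3K79me2 of the 4, with 25.7, 33.7, 27.9 and 14.95 kb, beside 77.6, 114, 224 and 136 kb of H3K27me3. All 4 Hox bins leaned to H3K27me3 in all 4 replicates while carrying H3K79me2 above 5 kb. The HoxD bin held no shared base. In replicates 1 and 2 the HoxA bin held 0.393 and 1.98 kb of shared bases and the HoxB bin 0.320 and 0.696 kb. Neither held any in the other replicates.

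A pair of bins was chosen because the longest H3K79me2 regions of these data lie there, and their H3K79me2 is given as a description. Both leaned to H3K79me2, but the first held at least 5 kb of both marks in every replicate and was mixed. The bin at chr16:38000001-39000000, the place of Gsk3b, a kinase gene of Wnt signalling, held 244, 250, 246 and 176 kb of H3K79me2 and 5.29, 9.67, 103 and 12.5 kb of H3K27me3. In H3K27me3 replicate 3 this bin held far more than in the others. The bin at chr6:134000001-135000000, the place of Etv6, an ETS family transcription factor gene, held 333, 363, 342 and 321 kb of H3K79me2 and 0.279, 0.885, 13.6 and 0.296 kb of H3K27me3.

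Of bins that were H3K79me2-only in all replicates, chr5:66000001-67000000 had the highest smallest value, with 269, 270, 286 and 251 kb of H3K79me2 and 0, 0.248, 1.07 and 0 kb of H3K27me3. Next came chr16:4000001-5000000 with 323, 322, 352 and 221 kb, and chr11:106000001-107000000 with 325, 315, 268 and 221 kb. The bin at chr14:12000001-13000000 varied most of these, with 410, 260, 308 and 184 kb of H3K79me2, and held no H3K27me3 base in any library. The last, chr2:60000001-61000000, held 168, 239, 231 and 181 kb. Their active marks varied: the chr5 bin held 26.0, 53.3, 145 and 136 kb of H3K27ac, above the averages for H3K79me2-only bins in each replicate, while the chr14 bin held 5.30, 12.1, 24.7 and 21.1 kb, below them in replicates 1, 3 and 4.

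The strongest H3K27me3-only bin was chr7:147000001-148000000, with 25.3, 57.4, 136 and 76.4 kb of H3K27me3 beside 4.16, 4.41, 3.42 and 2.45 kb of H3K79me2, close to the 5 kb at which it would have been called mixed. The bins chr9:91000001-92000000, chr3:128000001-129000000 and chr13:22000001-23000000 had no H3K79me2 base in any library and held 18.7 to 41.4, 18.0 to 51.6 and 15.8 to 71.7 kb of H3K27me3. The bin chr11:33000001-34000000 held 18.2 to 89.99 kb of H3K27me3 and 1.42 to 3.37 kb of H3K79me2. These bins held less H3K27me3 than the HoxC bin in each replicate. That bin was itself chosen for high values of both marks, so nothing is read from this.

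Among bins with a mark, runs of the same class were longest for mixed bins. Runs of bins with neither mark were not counted. Of mixed bins in all 4 replicates, 46.8% were followed by another, against a 21.3% share of all bins, while for H3K79me2-only bins it was 14.3%, near their share of 11.2%. The longest run of bins that were mixed in all 4 replicates was 11 bins, chr11:94000001-105000000, where H3K79me2 covered 1533, 1584, 1445 and 1191 kb and H3K27me3 399, 798, 2163 and 917 kb. Runs of H3K79me2-only bins reached at most 3 bins, as at chr6:57000001-60000000, which had no H3K27me3 base in any library. None of the 21 H3K27me3-only bins followed another, and with a share of 0.891% of all bins nothing can be read from that.

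Stretches called as H3K27me3 in every library gave the strictest view of where the mark lay. There were 1062 stretches of at least 1 kb covered in all 4 libraries, 1.699 Mb in all. None shared a base with H3K79me2 of all 4 libraries, and 5 (0.471%) shared a base with H3K79me2 of any. For windows of 1 kb set every 10 kb over the bins these shares were 4.26% and 9.47%. The stretches' median distance to H3K79me2 of any library was 54.2 kb, against 138 kb for the windows, and 297 (28.0%) lay over 100 kb away, against 55.6%. A set of 51 (4.80%) lay within 10 kb of H3K79me2 in all 4 libraries without sharing a base, which is close to the 4.23% of the windows.

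The longest of those 51 was chr15:76346865-76352385, 5521 bp long and 3.95 to 4.68 kb from H3K79me2, counting from the nearest to the farthest library. Next was chr8:72406236-72411444, 5209 bp long and 5.80 to 6.77 kb away. Closeness to H3K79me2 in every library was the rule that chose these stretches, so their distances are given only as a description. At the other end, 2 stretches lay over 1 Mb from any H3K79me2 region, on chromosome 18 and at chr12:50483566-50485126, and the latter was 1109 kb from the nearest.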

How the data were processed

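The deposited files are peak lists, 1 per antibody library, with chromosome, start, end, name and score. Per the submitters' processing notes the build is mm9 and the tools include CASAVA 1.7, Bowtie, MACS and deepTools, with no role or order given. The score was assigned by the authors to every peak. Per library it began at 50 to 50.04, the value of a p-value of 1e-05 when its negative log10 is multiplied by 10, and it was used only to filter peaks in alternatives. Per the labels' protocols, 3 mg of tissue per antibody was used and chromatin was sheared to 250 to 500 bp. The 4 input samples were not analysed here. The lists hold no read counts, so depth and counting error are unknown. Libraries with more peaks may have been sequenced more deeply, and settings of the peak caller, which are not given in the sources used here, can alter width and covered length.

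Overlapping peaks of a library were merged and peaks outside chromosomes 1 to 19 were left out (2538 of 301212 for both marks). Of 2482 bins of 1 Mb, 126 held no peak of any mark and were left out. Distances are between nearest ends, 0 where regions overlap, and 1 bp was added before log2. Groups of 4 libraries were compared with two-sided exact permutation tests over 70 splits, and classes of bins with sign flips over 16 patterns (Python 3.11.15, NumPy 2.4.6, SciPy 1.17.1). The functions passed 64 of 64 checks on simulated data. No genome or annotation of mm9 was used, so no sequence is printed, and the bins of Hox clusters, Gsk3b and Etv6 were placed from general knowledge. Regions were named by rule: the exclusive bins with the highest smallest value of their mark, with at most 1 per chromosome, the mixed bins, the longest runs and chains, and the stretches covered in all libraries that were longest near H3K79me2 or farthest from it. The members, lists and tests were chosen with earlier results of these data known. The relative coverage by distance and the correlation at 10 kb were added to the tested alternatives after seeing the data.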

Additional observations from a re-analysis of the deposited data

Results flagged for a closer look

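In 123 groups of 4 libraries, 16 had a library far from the other 3 by Dixon's test, where chance gives about 1 in 20. H3K27me3 replicate 3 had a median width of 1490 bp, against 337 to 456 bp in the others, and its top 10% of bins held 49.0% of its bases, against 59.7% to 61.8%. The correlation of H3K79me2 and H3K27me3 was also highest in replicate 3, at 0.638 over 1 Mb bins against 0.551 to 0.556, at 0.149 over bins of 100 kb against 0.0963 to 0.1000, at 0.535 over bins of 500 kb against 0.422 to 0.437, and at 0.710 over bins of 2000 kb against 0.628 to 0.641. The part of the width in the correlation was not tested.

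The share of H3K27me3 regions within 100 kb of H3K79me2 was 63.0% in replicate 1, against 59.5% to 59.9%. H3K9me3 replicate 4 overlapped H3K79me2 in 36.5% of its regions, against 6.04% to 7.13%, and had 55.9% within 10 kb of it, against 20.1% to 26.0%. H3K9me3 replicate 1 had a median distance to H3K27me3 of 243 kb, against 118 to 134.2 kb. H3K27ac replicate 2 overlapped H3K79me2 in 82.7% of its regions, against 36.7% to 43.2%. H3K4me1 replicate 4 had a median distance to H3K79me2 of 0.788 kb, against 0 in the others, and 67.2% of its regions lay within 10 kb, against 73.3% to 74.5%.

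By chromosome, H3K27me3 on chromosome 2 stood at 1.30 times the average of all bins in replicate 4, against 1.50 to 1.52. H3K79me2 on chromosome 6 stood at 1.17 in replicate 4, against 0.966 to 0.991. H3K27me3 on chromosome 16 stood at 0.972 in replicate 3, against 0.428 to 0.442.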

How the results depend on the processing

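Of 189 values recomputed under other settings, 147 kept their direction and side of the threshold (or moved by less than the spread between replicates) and 4 changed direction. Of the 147, 48 were of other marks in exclusive bins, where no p can go below 0.125 and the side of the threshold says nothing, which leaves 99. Leaving out a replicate number leaves 3 against 3, where no exact p can go below 0.1, so each such p is without meaning for stability. The values then ran from 22.1 to 35.6 points for marked bins, -24.0 to -19.3 points for the top 10% of bins, -0.14 to -0.10 for adjacent bins, 0.61 to 1.75 for H3K27me3 against H3K9me3 distances, 10.76 to 13.73 for H3K27me3 against H3K4me3 distances, and -0.33 to 2.52 points for neighbours within 10 kb, which changed direction without replicate 3. That last difference also changed direction when peaks scored under the median were dropped (-0.94 points) and with the same number of best-scored peaks (-4.06 points). The difference of H3K79me2 and H3K9me3 distances to H3K27me3 became 0.28 with the mean of log2 distances, and that against H3K4me3 2.27 (exact permutation p 0.0286). Calls lost were marked bins from 1 kb (15.7), adjacent bins without peaks under the median score (-0.0690), and H3K27me3 against H3K9me3 distances with best-scored peaks (0.0668) or peaks within 1 kb merged (1.26). The bin correlation moved to 0.413 with bins of 0.5 Mb (only those with a peak), 0.654 with 2 Mb and 0.525 at the median score. Mixed bins moved to 22.5% with bins of 0.5 Mb, 53.2% with 2 Mb, 52.1% marked from 1 kb, 18.6% from 20 kb and 12.2% for the top 25% of bins. That choice fixes the number of marked bins, so it was not run for them. For H3K4me3 in exclusive bins the lowest value was 0.37 and for H3K27ac the range was 1.23 to 6.96. The causes were not tested.

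With the replicate number as a block, the differences stay 28.2 points (marked bins), -21.0 points (top 10%), -0.12 (adjacent bins), 1.40 and 12.14 (H3K27me3 distances against H3K9me3 and H3K4me3), 0.00622 (gaps), 0.82 points (neighbours), -0.21 and 0.92 (H3K79me2 distances), and no sign-flip p can go below 0.125. The labels do not say that numbers pair libraries. Deviations of same-numbered libraries from their mark's mean correlated at -0.0598, -0.133, 0.0589 and 0.0312 over 1 Mb bins but at 0.791, 0.435, 0.865 and 0.877 over 19 chromosomes, and H3K79me2 replicate 2 correlated better with H3K27me3 replicate 1 (0.547). Unknown depth limits every comparison of covered length. Leaving out H3K27me3 replicate 3 or H3K9me3 replicate 4 alone was chosen after seeing the data.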

Other observations

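Some chromosomes stood high or low in a replicate number across all 6 marks of the series. Relative to all bins of its library, coverage on chromosome 15 was highest in replicate 4 for 6 of 6 marks, at 1.44 for H3K79me2, 1.81 for H3K27me3, 2.42 for H3K4me1, 1.32 for H3K4me3, 1.68 for H3K27ac and 2.73 for H3K9me3. The other replicates lay between 0.978 and 1.08 for H3K79me2 and between 0.799 and 1.20 for H3K27me3. Chromosome 6 was likewise highest in replicate 4 for 6 of 6 marks, at 1.17 for H3K79me2 and 1.20 for H3K27me3. Chromosome 16 was highest in replicate 3 for 6 of 6 marks, at 1.10 for H3K79me2, 0.972 for H3K27me3 and 1.51 for H3K4me1, and lowest in replicate 4 for 6 of 6 marks. Chromosomes 2, 3 and 13 were lowest in replicate 4 in all 6 marks. These are values of single libraries, with no test, and a cause was not tested. The HoxC bin lies on chromosome 15, with 381 kb of H3K27me3 in replicate 4 against 154 to 274 kb. The Gsk3b bin lies on chromosome 16, with 103 kb in replicate 3 against 5.29 to 12.5 kb. These lengths, unlike the values above, are not relative to the library's average. H3K27me3 covered 10.8, 23.7, 102.3 and 32.4 Mb in replicates 1 to 4, so the lengths do not show that either bin was raised beyond its library.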
